A study of Rattus norvegicus with 4 samples.

Results

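The genes described here are factors that process, carry and translate RNA, as they appear on a spotted rat cDNA array. They were chosen by symbol: initiation and elongation factors (Eif, Eef), heterogeneous nuclear ribonucleoproteins (Hnrnp), SR splicing factors (Srsf), spliceosome components (Sf3, Snrp), DEAD-box and DEAH-box helicases (Ddx, Dhx), exosome subunits (Exosc), RNase P subunits (Rpp), Pumilio proteins, poly(A)-binding proteins and SCAF proteins. The rule took 86 of the 7688 spots on each array, out of 5169 spots with 1 gene symbol. They belong to 56 cDNA clones of 55 genes, 30 clones printed as 2 spots and 26 as 1 spot. No spot with 1 symbol carried a poly(A)-binding protein name, and Pum2 was the only Pumilio gene.

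Each of 4 two-colour arrays set total liver RNA from a female Fischer rat given ciprofibrate, at 50 mg per kg of body weight per day for 60 days, against the same RNA pool made from 5 control animals. The drug is a fibrate and activates the nuclear receptor PPARα. The labels say that each array holds 1 of 4 treated rats without numbering them, so each array was counted as a different rat, and the p-values otherwise measure technical spread. The pool is common to all arrays, so no test contains the spread among control animals.

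Messenger RNA is capped, spliced and polyadenylated in the nucleus, exported, translated by ribosomes with the help of initiation and elongation factors, and finally degraded, in part by the exosome. The initiation factor eIF2 brings the first transfer RNA to the ribosome and must be recharged with GTP by eIF2B; the cap-binding factor eIF4E is held back by its binding protein Eif4ebp1. Liver makes most plasma proteins and has a high demand for translation. Some genes taken by the rule are regulators rather than factors of these steps: Eif4ebp1 is an inhibitor, Eif2ak1 and Eef2k are kinases, Dhx58 belongs to antiviral RNA sensing, and Snrpc-ps3 is listed as a pseudogene.

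The deposited values are log10 ratios, given here as log2 after each array was centred on its median. Neither the dyes nor the direction of the ratio are stated. Treated liver is named first, as channel 1, and on that order alone a positive ratio is read as likely a higher level in treated liver. Genes known to be induced by peroxisome proliferators did not settle it: of 10 tested, 6 had a positive and 4 a negative mean. Among them Ech1, Me1 and Acsl1 were positive calls and Acot2 a negative one; with the position surface described below removed, Ech1 and Me1 were positive calls and Cpt1a a negative one. A ratio does not show a level, so the tissue could not be checked from its markers: all 6 clones of the hepatocyte genes Alb, Apoa1, Ass1, Serpina1 and Tf had negative means, from -0.69 to -0.22, and only Tf passed the test. In RNA of a whole liver, fewer cells of a type and less RNA per cell cannot be told apart. Replicate 2 stood apart from the other arrays: over the 4704 tested clones its ratios correlated with theirs at 0.468 to 0.532 (Pearson), against 0.683 to 0.758 among the others. The slide position also went with the ratio. In a layout inferred from the values as 2 columns of printing blocks, the median ratio over all tested clones was 0.15 in the left column and -0.16 in the right one. A smooth surface over the positions was therefore subtracted as an alternative, called the position surface below, and its value is given beside the results it touches.

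Of the 56 clones, 46 had a ratio on all 4 arrays and were tested, 1 had a ratio on 3 arrays, 1 on 2 arrays and 8 on none. Over the whole array, each spot that the annotation does not list counts as a clone of its own. A clone was called where limma's two-sided test of the mean log2 ratio against 0, Benjamini-Hochberg adjusted over all 4704 clones, gave less than 0.05. By this rule 7 clones were positive and 9 negative, or 15.2% and 19.6%, against 13.6% and 15% of all tested clones, so the shares lay near those of the whole array. Their median ratio was -0.03 against -0.01 over all tested clones. Of the negative calls, 3 reached 2-fold, and none of the positive ones did; over the whole array 2.64% were negative calls of that size.

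The calls differed in how they stood up to slide position. All 7 positive calls sat in left blocks, as did 605 of the 638 positive calls on the whole array; left blocks held 24 of the 46 clones. With the position surface removed none of them was called, their median going from 0.55 to 0.25. Subtracting the median of each printing block instead left Hnrnpl, the 2-spot Hnrnpc clone, Eif4ebp1 and Scaf1 called (limma adjusted p = 0.0219, 0.0276, 0.0324 and 0.0408). The calls of Eif5, Eef2 and Ddx39b ended in that setting too. Over the whole array 193 of the 706 negative calls sat in left blocks. Of the 9 negative calls among the members, 3 sat in left blocks and 6 in right ones. Still called with the position surface removed were 5, the clones of Pum2, Scaf8, Exosc10, Exosc9 and Eif2b2. These 5 were also called without each array in turn. With the surface removed, 1 of the 46 clones was a positive call and 6 were negative calls in all. These include Rpp38 as the positive and Eif2b1 as a negative call, which were not called before. Over all tested clones, 2.85% were positive and 11.3% negative calls in that setting.

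**Figure D1:**
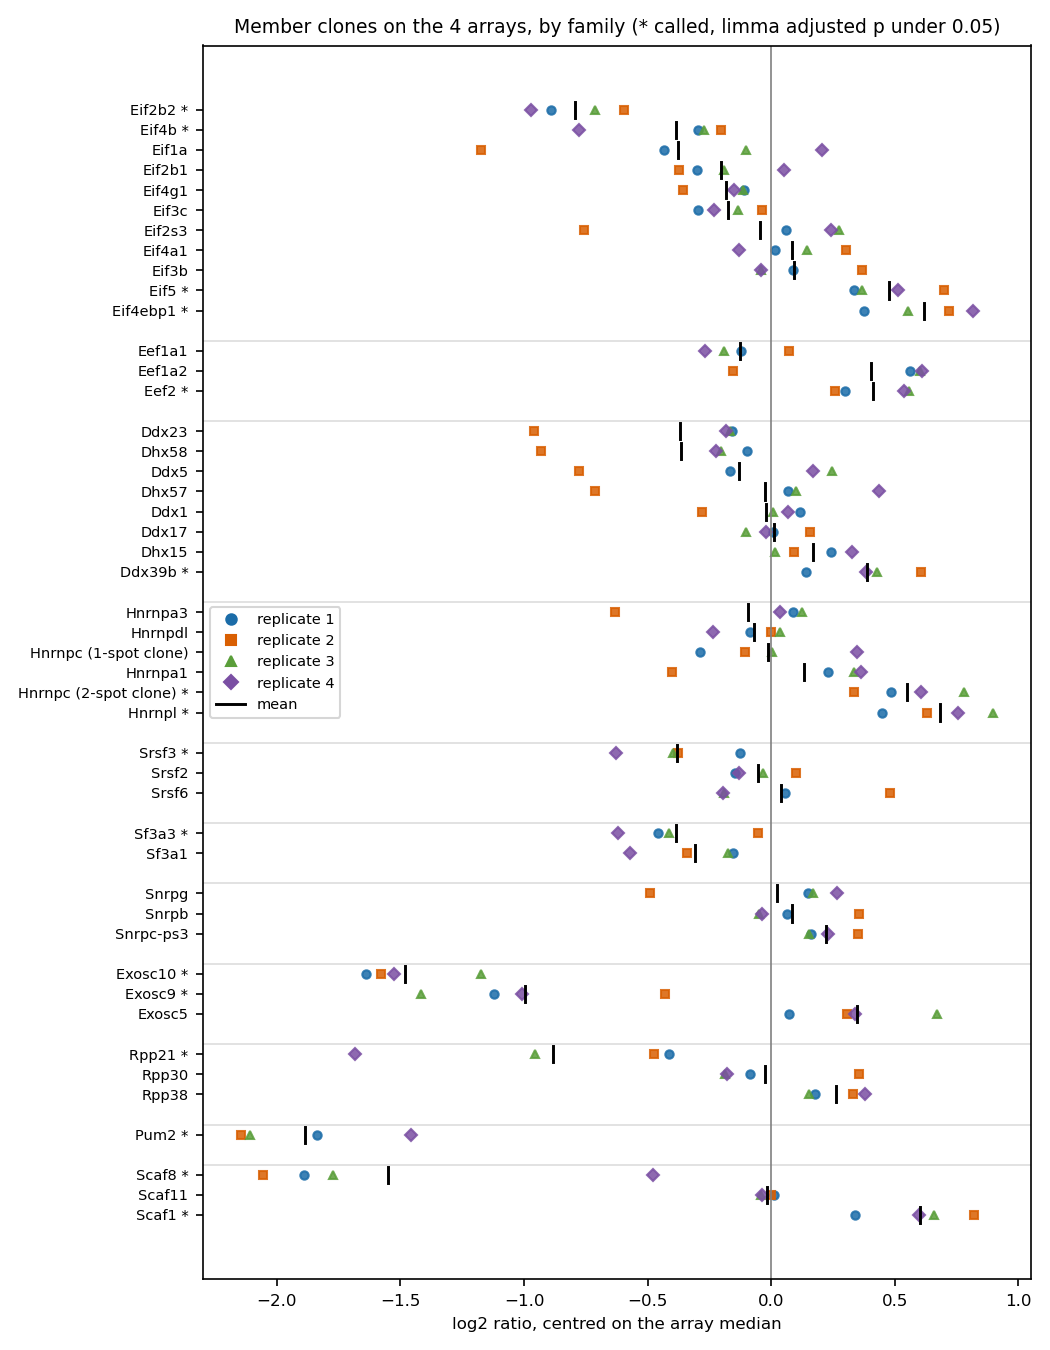
Log2 ratio of each of the 46 tested clones on the 4 arrays (points) with the mean (bar), centred on the array median and grouped by family; an asterisk marks a call. The clones of Pum2, Scaf8, Exosc10 and Exosc9 lie furthest to the negative side, and replicate 2 is often the array furthest from the others.

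The upstream sequences of called genes are shown here because PPARα, the target of the drug, binds DNA at direct repeats of AGGTCA, and because the windows of the set differ from those of all genes in the motifs counted below. They are from RefSeq on the GRCr8 assembly, and the promoter table used holds a window for 48 of the 55 genes. Printed are the bases of the 250-base window before the table's start site that lie before the annotated gene, 5′ to 3′ on the gene's strand, for 4 of the 5 negative calls that kept their call and for 2 positive calls. The windows of Pum2 and Hnrnpl lie inside the annotated gene and are not shown. The stretch of Scaf1, another positive call, is 121 bases long and is also not shown. It holds none of the motifs marked below. Capitals mark the ETS core (CGGAAG), the GC box (GGGCGG), the CCAAT box (CCAAT), the single receptor element AGGTCA and the TATA box (TATAAA), on either strand; the stretch printed for Scaf8 holds none of them.
Exosc10, chr5:164278190-164278413, plus strand: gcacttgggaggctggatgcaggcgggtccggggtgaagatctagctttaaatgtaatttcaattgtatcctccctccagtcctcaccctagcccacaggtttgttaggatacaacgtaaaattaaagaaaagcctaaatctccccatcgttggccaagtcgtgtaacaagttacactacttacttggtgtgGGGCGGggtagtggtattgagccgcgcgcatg
Exosc9, chr2:121343953-121344153, plus strand: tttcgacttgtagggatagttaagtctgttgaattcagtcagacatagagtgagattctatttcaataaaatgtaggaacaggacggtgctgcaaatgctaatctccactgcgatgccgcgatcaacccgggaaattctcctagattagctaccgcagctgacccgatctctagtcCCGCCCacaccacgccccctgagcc
Scaf8, chr1:46132830-46132971, plus strand: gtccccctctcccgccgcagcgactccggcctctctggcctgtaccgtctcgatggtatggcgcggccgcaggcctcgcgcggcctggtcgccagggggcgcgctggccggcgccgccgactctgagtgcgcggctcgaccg
Eif2b2, chr6:110597729-110597978, plus strand: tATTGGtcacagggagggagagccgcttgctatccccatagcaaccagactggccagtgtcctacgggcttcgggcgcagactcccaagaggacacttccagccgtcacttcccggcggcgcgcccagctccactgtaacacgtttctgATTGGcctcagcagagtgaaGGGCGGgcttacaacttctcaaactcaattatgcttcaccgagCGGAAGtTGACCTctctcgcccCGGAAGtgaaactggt
Ddx39b, chr20:3589652-3589901, minus strand: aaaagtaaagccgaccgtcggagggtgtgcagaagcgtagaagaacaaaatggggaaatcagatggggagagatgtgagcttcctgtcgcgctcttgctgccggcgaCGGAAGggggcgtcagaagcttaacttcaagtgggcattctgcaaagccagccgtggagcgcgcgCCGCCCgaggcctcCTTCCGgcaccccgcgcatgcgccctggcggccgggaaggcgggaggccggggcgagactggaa
Hnrnpc, chr15:27282780-27282965, minus strand: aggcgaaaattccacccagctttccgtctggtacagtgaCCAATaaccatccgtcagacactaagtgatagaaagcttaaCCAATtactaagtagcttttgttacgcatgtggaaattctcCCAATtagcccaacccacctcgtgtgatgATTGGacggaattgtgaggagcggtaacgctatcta

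Over the full 250-base windows, 24 of 48 held the ETS core, against 14.7% of the windows of all 27457 genes in the table, and 32 held the GC box, against 32.4%. The TATA box was in 4, against 13.1% of all, and the CCAAT box in 21, or 43.8%, against 34.3%. The median GC content was 60.4% against 52% for all genes. The direct repeat of AGGTCA with any single base between the copies was in none of the 48 windows and in 0.0546% of all. The single element AGGTCA, which is part of that repeat, was in 4, those of Eif2b2, Eif2b4, Eif3c and Srsf3, or 8.33% against 13.7% of all. A match is a stretch of letters and not a shown binding site, and the windows do not reach distant elements.

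Among the translation initiation factors, 11 of 14 clones were tested, with 2 positive and 2 negative calls and a median ratio of -0.18. Over all tested clones 13.6% were positive and 15% negative calls. The subunits of eIF2B, the exchange factor that recharges eIF2 with GTP, did not share a sign. The clone of Eif2b2, the beta subunit, was at -0.89, -0.60, -0.71 and -0.97 on replicates 1 to 4, a mean of -0.79 ± 0.17 (log2, SD, n = 4, limma adjusted p = 0.00439) or a 1.73-fold difference. All 4 arrays were negative and close together, although its duplicate spots were at -1.43 and -0.52 on replicate 4. Eif2b1, the alpha subunit, was at -0.20 ± 0.19 and was not called (adjusted p = 0.185). With the position surface removed it was at -0.46 ± 0.10 and became a negative call (limma adjusted p = 0.016). Eif2b4, the delta subunit, had a ratio on 3 arrays, at 0.49, 0.51 and 0.70 on replicates 1, 3 and 4, and so was not among the 46 tested clones. It was a positive call in the alternatives that took it in: at 0.57 with ratios required on at least 3 arrays (limma adjusted p = 0.0194), at 0.57 without replicate 2 (adjusted p = 0.00897), and at 0.23 without replicate 2 and with the position surface removed (adjusted p = 0.0426).

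The clone of Eif4ebp1, the protein that sequesters the cap-binding factor eIF4E, had ratios of 0.38, 0.72, 0.55 and 0.82 on replicates 1 to 4, a mean of 0.62 ± 0.19 (SD, n = 4, limma adjusted p = 0.00966) or 1.53-fold. Its duplicate spots differed by at most 0.07 on any array. It kept its call without each array in turn, and with the position surface removed it was at 0.32 ± 0.16 (limma adjusted p = 0.0562). Eif5, which triggers GTP hydrolysis by eIF2 at the start codon, was at 0.33, 0.70, 0.37 and 0.51, a mean of 0.48 ± 0.17 (adjusted p = 0.0172). Its call ended without replicate 3 (adjusted p = 0.0641) or 4 (adjusted p = 0.0669) and with the surface removed (0.25 ± 0.28). Both clones lie in the left block column.

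Eif4b, a cofactor of the helicase eIF4A, was the other negative call, at -0.30, -0.20, -0.27 and -0.78, a mean of -0.39 ± 0.26 (limma adjusted p = 0.0492). Replicate 4 was far below the other arrays, and the call ended without replicate 1, 3 or 4 (-0.26 without replicate 4) and with the surface removed (-0.49 ± 0.33, adjusted p = 0.0562). The helicase Eif4a1 itself was at 0.08 ± 0.18 and the scaffold Eif4g1, which joins the cap to the ribosome, at -0.18 ± 0.12; neither was called. Of the eIF3 subunits, Eif3b was at 0.09 ± 0.19 and Eif3c at -0.18 ± 0.11. Eif3d had ratios on 2 arrays only, at -1.46 on replicate 1 and -0.05 on replicate 3, and was not tested. Eif2s3, the gamma subunit of eIF2, was at 0.06, -0.76, 0.28 and 0.24, where replicate 2 alone was negative. Eif1a, a factor of scanning, had a mean of -0.38 ± 0.59 that rested on replicate 2, at -1.17, where its duplicate spots were at -0.30 and -2.05.

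Of 3 tested elongation factor clones, 1 was a positive call, against 13.6% of all tested clones. Eef2, which moves the ribosome along the message, was at 0.30, 0.26, 0.56 and 0.54, a mean of 0.41 ± 0.16 (SD, n = 4, limma adjusted p = 0.0249). The arrays were all positive, but with the position surface removed the mean was 0.04 ± 0.08, and the call also ended without replicate 1, 3 or 4. Eef1a1 and Eef1a2 deliver aminoacyl transfer RNA and are close relatives, and how much each message binds the other's clone was not tested. Eef1a2 was at 0.56, -0.16, 0.60 and 0.61, so that 3 arrays lay close together and replicate 2 was on the other side of 0; its mean of 0.40 ± 0.37 was not called, while without replicate 2 it was at 0.59 (limma adjusted p = 0.00663). With the surface removed it was at 0.05 ± 0.27. Eef1a1 was at -0.13 ± 0.15.

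**Figure D2:**
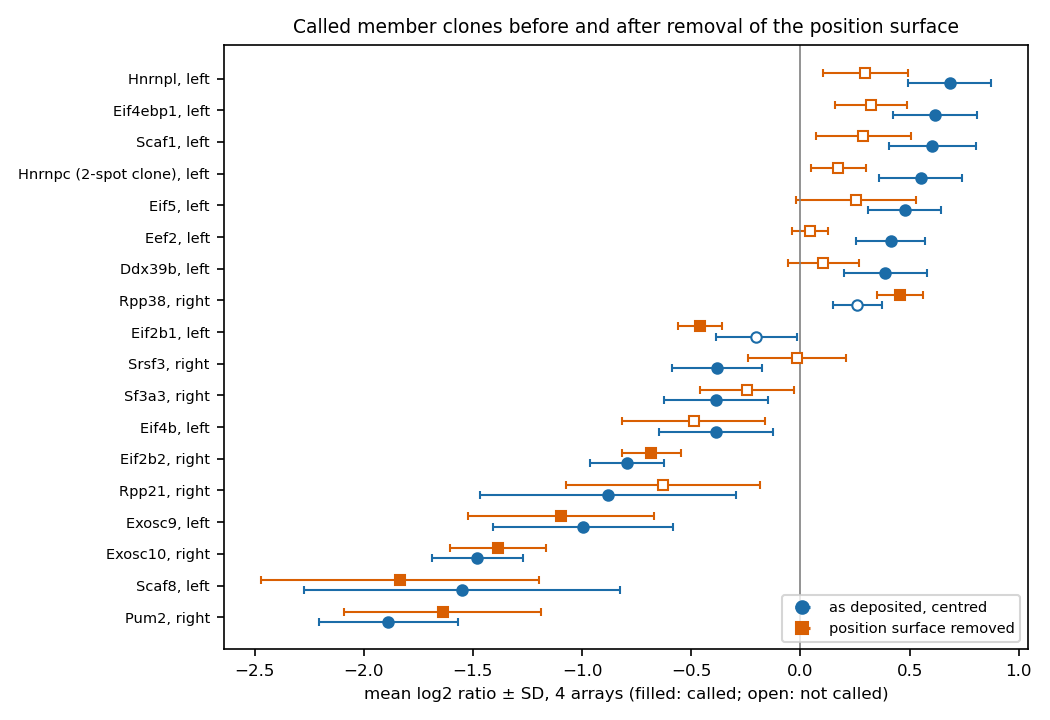
Mean log2 ratio ± SD over 4 arrays of each clone called in either setting, as deposited and centred (circles) and with the position surface removed (squares); filled symbols are calls, and left or right names the block column. All 7 positive calls shrink and become open, while Pum2, Scaf8, Exosc10, Exosc9 and Eif2b2 stay filled; Rpp38 and Eif2b1 are filled only with the surface removed.

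The 4 clones at the lowest ratios were those of Pum2, Scaf8, Exosc10 and Exosc9. Pum2, an RNA-binding protein that represses translation of its targets, was at -1.84, -2.15, -2.11 and -1.46 on replicates 1 to 4, a 3.7-fold mean difference (limma adjusted p = 0.000313). Each array was far below 0, and the means without any array lay between -2.03 and -1.80; the clone is a lone spot, so no duplicate bears on it. With the position surface removed it was at -1.64 ± 0.45. Scaf8, which binds the tail of RNA polymerase II and acts on transcript termination, was at -1.89, -2.05, -1.77 and -0.48. Replicate 4 was thus much nearer to 0 than the others, and its duplicate spots there were at -0.06 and -0.90; without that array the mean was -1.91, and with the surface removed it was -1.83 ± 0.64 (adjusted p = 0.00817).

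The SCAF clones did not share a direction. Scaf1, a protein with SR repeats that binds the same polymerase tail, was at 0.34, 0.82, 0.66 and 0.60, a mean of 0.60 ± 0.20 (SD, n = 4, limma adjusted p = 0.0105). It kept its call without each array and lost it with the surface removed, at 0.29 ± 0.22 (adjusted p = 0.092). Scaf11 was at 0.01, 0.00, -0.04 and -0.04 and was the clone of the set with the smallest spread, at an SD of 0.03.

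The exosome, the ring-shaped complex that degrades RNA from its 3′ end, was represented by 3 clones, 2 of them negative calls. Over all tested clones 15% were negative calls. Exosc10, a catalytic subunit of the exosome in the nucleus, was at -1.64, -1.58, -1.17 and -1.53, a mean of -1.48 ± 0.21 (SD, n = 4, limma adjusted p = 0.000374) or 2.79-fold. The clone means were close, but its duplicate spots were not: the first was at -2.21, -1.54, -1.80 and -2.0 and the second at -1.07, -1.62, -0.55 and -1.05, so they agreed on replicate 2 and differed by about 1 on the others. Exosc9, a subunit of the ring, was at -1.12, -0.43, -1.42 and -1.01, a mean of -0.99 ± 0.41 (limma adjusted p = 0.00724) from a lone spot. Both kept their calls with the surface removed, at -1.38 ± 0.22 and -1.10 ± 0.43. Exosc5, another ring subunit, was on the other side of 0 at 0.07, 0.31, 0.67 and 0.34 and was not called (adjusted p = 0.0608).

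RNase P, which trims the 5′ end of transfer RNA precursors, had 3 tested protein subunits with 1 negative call, against 15% of all tested clones. Rpp21 was at -0.41, -0.48, -0.96 and -1.68, a mean of -0.88 ± 0.59 (SD, n = 4, limma adjusted p = 0.02). The arrays spread widely, and the call ended without replicate 3 (-0.86, adjusted p = 0.0587) and with the surface removed (-0.63 ± 0.44, adjusted p = 0.0556). Rpp38 was at 0.18, 0.33, 0.15 and 0.38 and not called, but became the only positive call of the set with the surface removed, at 0.46 ± 0.10 (limma adjusted p = 0.0167); it lies in the right block column. Rpp30 was at -0.02 ± 0.26.

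**Figure D3:**
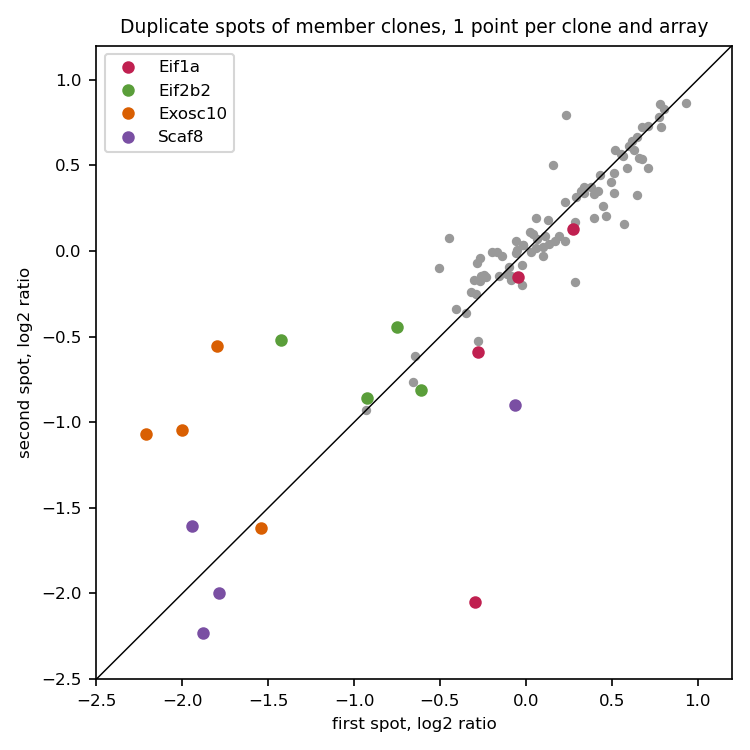
Log2 ratio of the second against the first spot of each clone printed as 2 spots, 1 point per clone and array, with the line of equality. Most of the 101 pairs lie near the line, with a median difference of 0.09; Exosc10, and Scaf8, Eif2b2 and Eif1a on some arrays, lie away from it.

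Duplicate spots of 26 clones could be compared on 101 pairs of values. Their median difference was 0.09 (log2), against 0.08 over all clones with 1 symbol and 2 spots, and 3 pairs differed by more than 1, belonging to Exosc10 (2 pairs) and Eif1a (1 pair). The duplicates of the called positive clones differed by at most 0.56, in Eif5, and otherwise by at most 0.26. For the negative calls printed as 2 spots the largest difference was 1.24 in Exosc10, 0.91 in Eif2b2 and 0.84 in Scaf8.

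Of the hnRNP clones, which coat nascent transcripts and steer splicing, 6 of 7 were tested, 2 were positive calls and none was negative. The shares over all tested clones were 13.6% and 15%. Hnrnpl, a splicing regulator that binds CA repeats, was at 0.45, 0.63, 0.90 and 0.76, the highest mean of the set at 0.68 ± 0.19 (SD, n = 4, limma adjusted p = 0.00724) or 1.61-fold. It kept its call without each array and lost it with the surface removed, at 0.30 ± 0.19 (adjusted p = 0.0763). Hnrnpc, which binds uridine-rich stretches of pre-messenger RNA, was measured by 2 clones that disagreed. The clone printed as 2 spots was at 0.48, 0.33, 0.78 and 0.61 and was called (adjusted p = 0.0126), while the clone printed as 1 spot was at -0.29, -0.11, 0.00 and 0.35 and was not (adjusted p = 0.953). The ranges of the clones overlapped only through replicate 4 of the latter. The call of the former ended without replicate 3 (adjusted p = 0.0721) or 4 (adjusted p = 0.0509). In the inferred layout the called clone lies in the same block as the clone of Hnrnpl. With the surface removed the called Hnrnpc clone was at 0.17 ± 0.13, against -0.08 ± 0.18 for the other Hnrnpc clone. Hnrnpa1 and Hnrnpa3 were negative on replicate 2 alone, at -0.40 and -0.63, and positive on the other 3 arrays. Without replicate 2 Hnrnpa1 was a positive call at 0.31 (limma adjusted p = 0.0318), and Hnrnpa3 was at 0.08 (adjusted p = 0.43). Hnrnpdl was at -0.07 ± 0.12.

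The spliceosome and SR clones gave 2 calls of 8, both negative, against 15% negative calls over all tested clones. Srsf3, an SR splicing factor, was at -0.13, -0.38, -0.40 and -0.63, a mean of -0.38 ± 0.20 (SD, n = 4, limma adjusted p = 0.038), and Sf3a3, a subunit of the U2 particle's SF3A complex, at -0.46, -0.05, -0.41 and -0.62, a mean of -0.39 ± 0.24 (adjusted p = 0.044). Both were negative on every array. With the surface removed Srsf3 was at -0.02 ± 0.22 and Sf3a3 at -0.24 ± 0.21, and both calls ended without replicate 1, 3 or 4. Sf3a1, the partner of Sf3a3, was at -0.31 ± 0.19 (adjusted p = 0.066). Srsf2 was at -0.05 ± 0.11 and Srsf6 at 0.04 ± 0.32. Among the Snrp clones, of proteins of the spliceosomal particles, limma called none, with 1 of 3 at an unadjusted p under 0.05 (Snrpc-ps3): Snrpb was at 0.08 ± 0.19 and Snrpg at 0.02 ± 0.35, and the pseudogene listing Snrpc-ps3 was at 0.22 ± 0.09.

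Of 8 tested RNA helicase clones 1 was a positive call, against 13.6% of all tested clones. Ddx39b, a helicase of splicing and messenger RNA export, was at 0.14, 0.61, 0.43 and 0.38, a mean of 0.39 ± 0.19 (SD, n = 4, limma adjusted p = 0.0342). The arrays were all positive; with the surface removed the mean was 0.11 ± 0.16, and the call ended without replicate 1, 3 or 4. Ddx23, a helicase of spliceosome activation, was at -0.16, -0.96, -0.17 and -0.18, and Dhx58 at -0.10, -0.93, -0.20 and -0.22. In both clones replicate 2 lay far below 3 arrays that were close together. Ddx5 and Dhx57 were also lowest on replicate 2, at -0.78 and -0.71, whereas Ddx17, a close relative of Ddx5, was at 0.16 there. Dhx15, which takes the spent spliceosome apart, was at 0.17 ± 0.14, Ddx1 at -0.02 ± 0.18 and Ddx17 at 0.01 ± 0.11.

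Replicate 2 was the array furthest from the median of the other 3 for 27 of the 46 clones, and for 2360 of the 4704 tested. The 6 hepatocyte clones were also lowest there, at -1.60 to -0.72 against -0.77 to 0.12 on the other arrays; their part in the ratios of the RNA factors was not tested. Without it, all 16 calls were kept; 18.5% and 19.0% of all clones with a ratio on the remaining arrays were then positive and negative calls. Without replicate 3, 3 of the 7 positive and 5 of the 9 negative calls were kept, and without replicate 4, 3 and 6. Without replicate 1, 5 and 6 were kept. Over all 4 arrays 25 of the 46 clones had the same sign throughout, 54.3% against 52.8% of all tested clones.

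**Figure D4:**
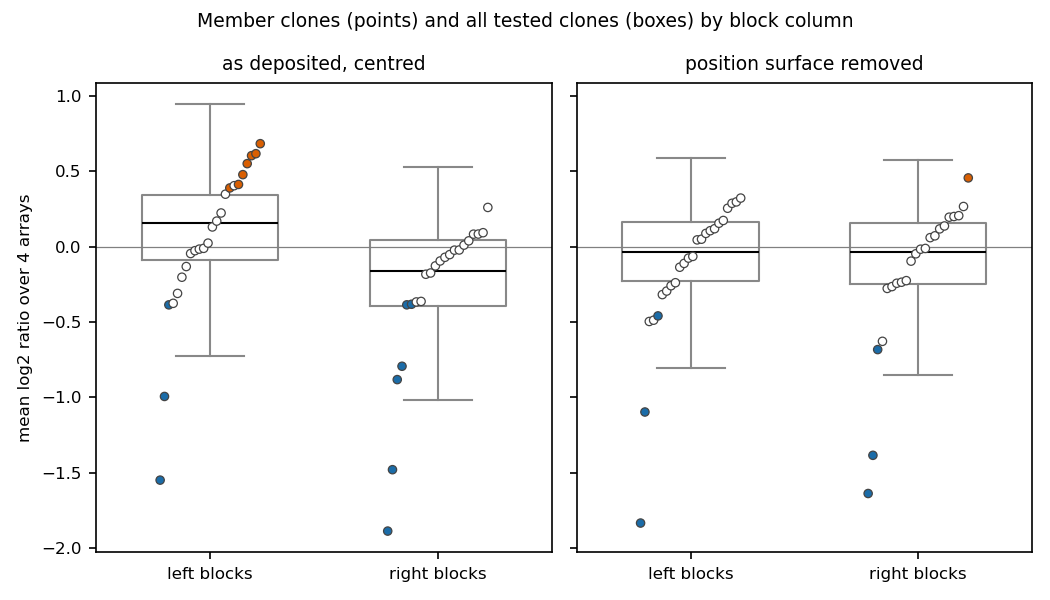
Mean log2 ratio of the 46 clones (points, ordered by ratio; orange positive calls, blue negative calls, white not called) and of all tested clones (boxes: quartiles and median, with whiskers at the usual box-plot limit) in the left and right block columns, as deposited and centred, and with the position surface removed. On the left panel the positive calls are all among left blocks and the box medians differ; on the right panel the medians of the boxes are alike.

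In the left block column the median of the members was 0.08 and in the right one -0.11; with the surface removed they were -0.07 and -0.03, and over all tested clones -0.03 in each column. The surface took between 0.22 and 0.39 (log2) from the means of the 7 positive calls. It made the means of Scaf8, Exosc9 and Eif4b, which are negative calls in the left column, more negative by 0.28, 0.10 and 0.10. The negative calls in the right column all became less negative. The change was smallest for Exosc10, from -1.48 to -1.38, and largest for Srsf3, from -0.38 to -0.02. The part of slide position in any single ratio was not tested beyond this subtraction.

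Another 8 clones had no ratio on any array: those of Ddx39a, Ddx47, Eef2k, Eif2ak1, Hnrnpa2b1, Rpp25, Snrpf and Srsf5. That is 14.3% of the 56 clones, against 13% of all clones on the array. Of them, Ddx39a, Eef2k, Eif2ak1 and Srsf5 were printed as 2 spots, and both spots lacked a ratio on all 4 arrays.

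Other genes of the same processes were read from lists by function. Of 6 tested genes of the nucleolus and ribosome assembly, 4 were negative calls and none positive, with a median of -0.63, against 15% negative calls over the whole array. These 4 were also called with the surface removed, but the count was 2 without replicate 3 and 3 without replicate 1 or 4. Polr1b, a large subunit of RNA polymerase I, was at -1.32 ± 0.84 (SD, n = 4, limma adjusted p = 0.0148), Mybbp1a, a nucleolar regulator of ribosome assembly, at -0.99 ± 0.36 (adjusted p = 0.0054), Nolc1, a nucleolar phosphoprotein, at -0.74 ± 0.50 (adjusted p = 0.0235) and Ubtf, the factor that activates ribosomal DNA, at -0.53 ± 0.28 (adjusted p = 0.0218). Polr1c was at 0.13 ± 0.09. Npm1, nucleophosmin, was at -0.23 ± 0.45 and became a negative call with the surface removed, at -0.59 ± 0.34 (limma adjusted p = 0.0385).

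Of 26 clones of other splicing and RNA-binding proteins, 3 were positive and 5 negative calls, with a median of -0.03, against 13.6% and 15% over the whole array. The negative count was 3 without replicate 1, 9 without replicate 2 and 1 without replicate 3 or 4, and the positive count was 0 without replicate 3. Luc7l, a factor of 5′ splice site choice, was at -0.74 ± 0.26 (limma adjusted p = 0.00799) and was the only one of the 8 still called with the surface removed, at -0.58 ± 0.17. Rbm10, a splicing regulator, was at 0.57 ± 0.18 (adjusted p = 0.0113) and at 0.25 ± 0.21 with it removed. Of 14 other translation genes, 2 were positive and 1 negative, led by Tpt1, a translationally controlled protein, at 0.51 ± 0.10 (adjusted p = 0.0113) and Paip2, an inhibitor of poly(A)-binding protein, at -0.49 ± 0.36 (adjusted p = 0.0378). None of these 3 was called with the surface removed; the positive count was also 0 without replicate 3 and 1 without replicate 4, and the negative count 0 without replicate 1, 3 or 4. Of 6 genes of RNA decay and 3′ end processing, 1 was negative, the small-RNA effector Ago1 at -0.79 ± 0.63 (adjusted p = 0.0312), a call that also ended with the surface removed and without replicate 1, 3 or 4. None of 6 aminoacyl-tRNA synthetases was called by limma (smallest adjusted p = 0.0767, for Wars1), although 1 was a negative call without replicate 2 and with array weights, and their means ran from -0.42 to 0.10.

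**Figure D5:**
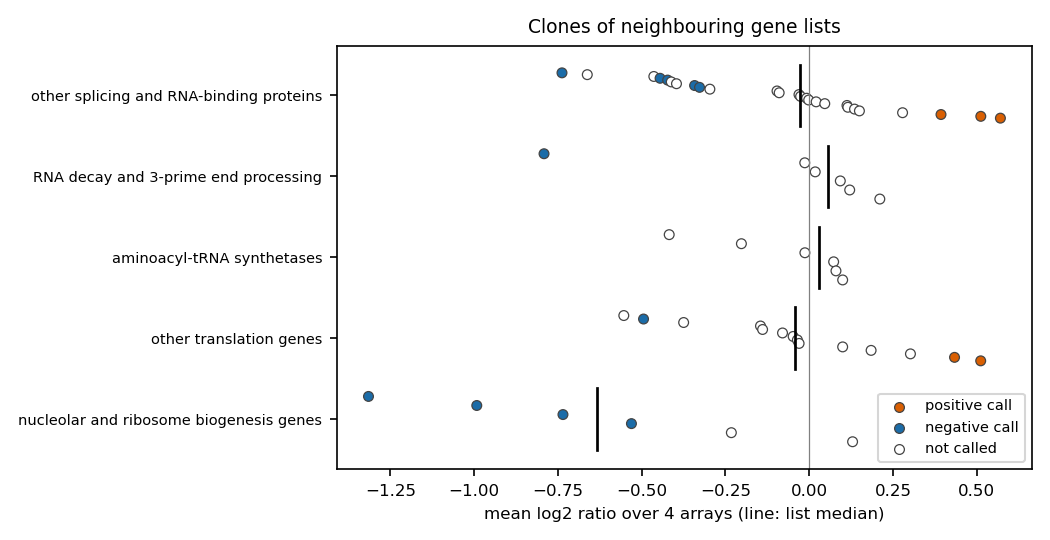
Mean log2 ratio over 4 arrays of each tested clone in 5 lists of other RNA and translation genes (orange positive call, blue negative call, white not called) with the list median as a line. The nucleolar list has 4 negative calls of 6 and a median of -0.63; the other medians lie between -0.04 and 0.06.

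Markers of other cells of the liver were read in the same way. Cd74, of antigen-presenting cells, was a negative call at -0.35 ± 0.07 (limma adjusted p = 0.029) and Lyz2, of phagocytes, was at 0.18 ± 0.19. Hbb, of red cells, was a negative call at -0.88 ± 0.24 (adjusted p = 0.00449), with Alas2 at 0.11 ± 0.22. Of 5 genes of endothelial and stellate cells, Des and Kdr were positive calls, at 0.62 ± 0.18 and 0.40 ± 0.21, and Acta2 a negative one, at -0.61 ± 0.27. Col1a1 at -0.16 ± 0.05 and Col3a1 at 0.19 ± 0.36 were not called. The bile duct markers listed had no tested clone. With the surface removed Des was at 0.25 (limma adjusted p = 0.146) and Kdr at 0.14 (adjusted p = 0.274), no longer called, while Acta2 was at -0.998 and, like Cd74 and Hbb, still called. The part of cell composition in the ratios of the RNA factors was not tested.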

How the data were processed

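The deposited table holds log10 ratios, 1 for each spot of an array; that scale was read from the values, since their antilogs are multiples of a thousandth (tolerance 0.02 thousandths) for 100.0% of spots. How the authors scaled them, corrected background or oriented them is, like the dyes, not given in the sources used here. Medians of the deposited columns were -0.0168, -0.035, -0.0283 and -0.0462 (log10). The most repeated value of each array, on 1171 to 1189 spots, was set to missing, and the rest were converted to log2. Names came from an older platform annotation, which lists 5252 probes, 83 of them with several symbols; no such probe matched the rule, and updating symbols through the Entrez number (GRCr8 table) changed none of the members' symbols.

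Spots of a clone were averaged (5674 rows, unlisted spots singly), arrays were median-centred, and rows with 4 ratios were tested against 0 in R 4.3.3 with limma 3.58.1 (lmFit, eBayes, Benjamini-Hochberg). The fit was tested on simulated data, drawn as independent normal values without any slide position pattern. Only 100 of 4704 rows were shifted at each size, while 1344 were called in the data, so its rates need not hold there. In the simulation the fit recovered 39% of rows shifted by a log2 ratio of 0.5 and 78% of those shifted by 1. Of its calls in the simulation, 2.5% were false. The smallest p of an exact sign-flip test would be 0.125. The number of arrays limits the precision. The position surface is a robust loess fit (span 0.05, degree 1, 4 iterations) over 8 inferred blocks of 31 by 31 spots. Members, lists and tests were chosen with earlier results of these data known. Named are every called clone with the same sign on every array, the clone of smallest p of each sign per family, genes with several clones, and the leading call of each sign per list; other members are given for completeness.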

Additional observations from a re-analysis of the deposited data

Results flagged for a closer look

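In 7 of the 46 tested clones 1 array lay apart from the other 3 by more than Dixon's critical value for 4 values. Chance flags about 1 in 20 such sets; here it was 15.2% of the members and 8.52% of all tested clones. Replicate 2 was the array in question for 6 of the 7, and for 283 of the 401 flagged over the whole array. On replicate 2 Ddx23 was at -0.96 (others from -0.18 to -0.16), Dhx58 at -0.93 (others from -0.22 to -0.10), Hnrnpa3 at -0.63 (others from 0.04 to 0.12), Snrpg at -0.49 (others from 0.15 to 0.27), Eif4g1 at -0.36 (others from -0.15 to -0.11) and Eef1a2 at -0.16 (others from 0.56 to 0.61). On replicate 4 Eif4b was at -0.78, with the others from -0.30 to -0.20. All 7 flagged values lay below the other arrays.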

How the results depend on the processing

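The number of positive calls went from 7 to 1 with the position surface removed, and that 1 was Rpp38, not among the 7. The number was 12 of 71 with every spot its own row, and 3 to 10 with an array left out. The number of negative calls, 9 at first, was 12 of 71 with every spot its own row and 5 to 9 with an array left out. The median ran from -0.06 to 0.01 over the alternatives, less than the spread between arrays. Of the 16 calls, 11 ended with the surface removed and 5 with block medians removed. With the surface removed and replicate 2 also left out, an alternative added after seeing the data, 8 ended and Srsf3 changed sign, to 0.0701. Among the positive calls, only that of Hnrnpl was kept in this added alternative, at 0.20 (limma adjusted p = 0.0487). Uncalled values that changed sign are listed only for clones named by the rule given above. Eef1a1 was at 0.0505 with block medians removed. Hnrnpdl was at 0.0715 with the surface removed, 0.0543 with block medians removed and 0.0652 in the added alternative. Srsf6 was at -0.10 with array weights and -0.11 to 0.12 with an array left out (negative without replicate 2). The Hnrnpc clone with 1 spot was at 0.0007 with array weights, -0.13 to 0.0814 with an array left out (0.0814 without replicate 1 and 0.0201 without replicate 2). Other uncalled members changed sign too. With the surface removed Hnrnpa1 went from 0.13 to -0.14 and Rpp30 from -0.02 to 0.14. None of the 16 ended under quantile normalization, a robust prior, array weights, arrays scaled to a common spread, or without centring; requiring ratios on at least 3 arrays ended 1, that of Eif4b. No paired analysis was possible because the arrays form a single group. The table holds no intensities, so signal over background is unknown.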
